A study of Mus musculus with 8 samples.

Results

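The 10 genes described here, Twist1, Sox9, Snai1, Snai2, Msx1, Bmp2, Bmp4, Tgfb2, Postn and Vcan, belong to the programme that builds the endocardial cushions and the mesenchyme of the heart valves. They were taken by symbol from a table of 52778 features measured by RNA sequencing in mouse embryonic hearts, and each of the 10 matched exactly 1 feature. Hearts were taken on embryonic day 11.5, and the labels give the tissue as ventricular heart. The 4 control libraries are labelled as wild-type C57BL/6. The 4 mutant libraries come from embryos homozygous for Atf4(del7/del7), a global CRISPR/Cas9 knockout allele that removes 7 bases of exon 3 and shifts the reading frame, although the genotype field of these samples also reads C57BL/6 WT. No drug or other treatment was applied in either group, and the sources used here give no sex for the embryos and do not say whether littermates were used. The sample protocol names cultured cortical neurons, whereas the other labels name heart.

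The cushions are swellings between the endocardium and the muscle of the atrioventricular canal and outflow tract. Muscle there releases BMP and TGF-beta ligands, and endocardial cells respond by losing their junctions and migrating into the matrix as mesenchyme, a step known as the endothelial-to-mesenchymal transition. That mesenchyme later forms the valve leaflets and parts of the septa. Several of the 10 genes are also active elsewhere in the embryonic heart, such as Tgfb2 in muscle and Postn and Vcan in other matrix-producing cells, so a level in whole tissue is not a count of cushion cells. ATF4, the protein that the mutant allele is designed to remove and that was not measured here, is a transcription factor of the amino acid and stress response.

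Expression is given as TPM, a unit that accounts for transcript length and for the size of the library. A TPM value is a share of its library, so levels compare between genes and libraries only as shares. Abundant transcripts differed between libraries, with erythroid markers (6 genes) summing to between 3710 and 6728 TPM. Refits with other scalings are given below. Error is the SD between the 4 libraries of a group. The number of reads behind a value is unknown. Differences between genotypes were tested with limma on log2(TPM + 1) across all 15545 genes that reached 1 TPM in at least 4 libraries, and p-values were adjusted by Benjamini-Hochberg over all of them. Fold changes are on this scale and slightly understate changes of the lower genes.

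Heart muscle transcripts were abundant in both groups. Ventricular muscle markers (8 genes, among them Myl2 and Myh7) summed to between 22487 and 24793 TPM in the controls and between 22225 and 24320 TPM in the mutants. Atrial muscle markers (6 genes, among them Myl7) summed to between 9720 and 11167 TPM in the controls and between 10555 and 11361 TPM in the mutants. Myl7 alone averaged 3479 TPM over the 8 libraries. Whether transcripts of this list came from atrial tissue was not tested. Atrioventricular canal muscle markers (6 genes, 5 of them outside the 10) summed to 58.3 to 71.3 TPM and 65.3 to 72.4 TPM. Of 9 neuronal markers, 7 stayed below 1 TPM in every library and Neurod6, a cortical neuron gene, was listed at 0 in all 8. A list of 10 cushion and valve mesenchyme markers outside the genes described here (Prrx1, Prrx2, Pdgfra, Cdh11, Col1a1, Col1a2, Col3a1, Lum, Fbln2 and Papss2) was detected in full, with a sum of 700 to 808 TPM in the controls and 672 to 801 TPM in the mutants. Tissue labelled ventricular thus carried transcripts of these markers in both groups at overlapping levels. Whether they came from cushion cells or from other matrix-producing cells was not tested. Outflow tract and second heart field markers (8 genes) summed to between 64.3 and 82.6 TPM in the controls and 72.7 to 82.5 TPM in the mutants. Of these 8 markers 4 were expressed enough for the test. Isl1, a second heart field factor, stood at 0.304 and 0.449 TPM on average in controls and mutants. Macrophage markers (6 genes) summed to between 7.65 and 16.4 TPM in the controls and 4.73 to 8.15 TPM in the mutants, and no gene of this or any other marker list passed the test. Atf4 itself rose in the mutants, from 112 ± 8.07 to 166 ± 15.1 TPM (SD, n = 4 per genotype). Its limma adjusted p was 0.0430, and the gene no longer passed in 7 of 8 refits without a single library. A transcript that is still made does not check the genotype labels, which rest on the sample titles. The other 5 genes past the adjusted threshold, Phgdh, Iars, Cars, Aldh1l2 and Yars, were all lower in the mutants. Their bearing on the genotype labels was not tested, and the number of calls depended on the processing, as given below.

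None of the 10 cushion genes passed the test, a count of 0 under limma with an adjusted p below 0.05, against 0.0386% of all genes tested. At an unadjusted p below 0.05 the count was also 0 of 10, against 6.1% of all genes tested, and in 0 of 10 did the mutant values lie wholly above or below the control values, against 3.68%. The adjusted p ranged from 0.865 for Bmp4 to 0.987 for Msx1. All 10 passed the expression filter, so none was left out of these counts. Of the 10, 6 had a positive and 4 a negative log2 fold change, with a median of 0.05, and 48.2% of all tested genes had a positive value, with a median of -0.0033. The individual values ran from -0.12 for Postn to 0.22 for Bmp4. In whole tissue, fewer cells of a type and less RNA per cell cannot be told apart, and this holds for every level below.

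**Figure D1:**
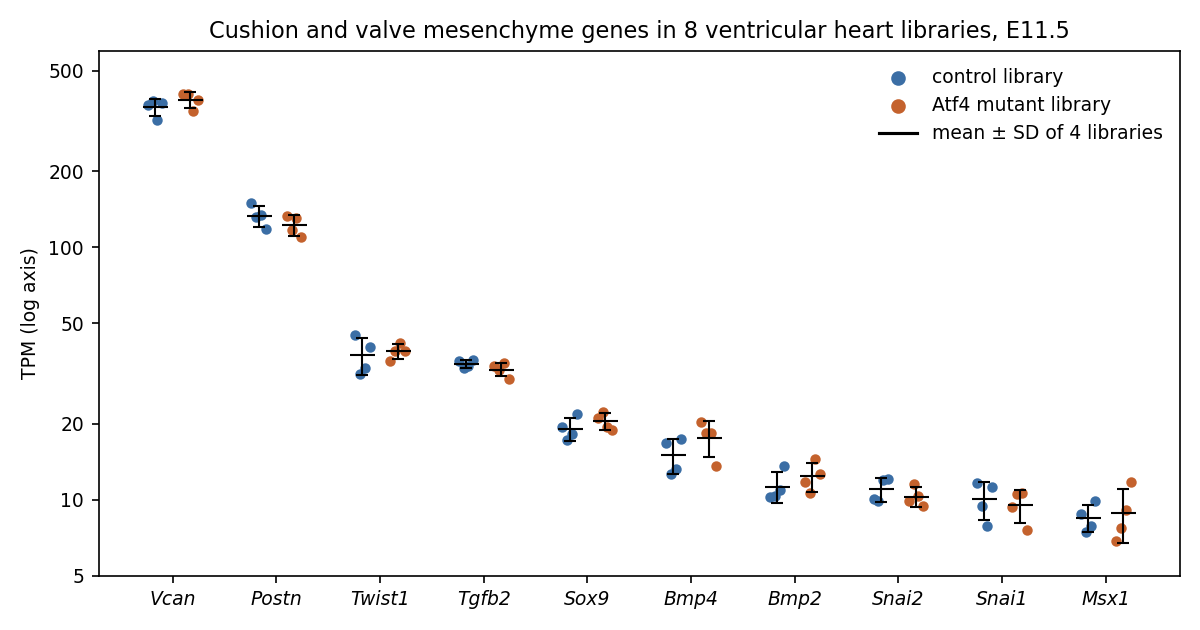
TPM of the 10 cushion and valve genes on a log axis, ordered by mean level, with a point for each of the 4 control (blue) and 4 Atf4 mutant (orange) libraries and black bars for mean ± SD. Levels run from 371.6 TPM on average for Vcan to 8.68 TPM for Msx1, and the groups overlap in every gene.

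The genes covered a wide range of abundance. Averaged over the 8 libraries, Vcan stood at 371.6 TPM, above 97.9% of tested genes, and Postn at 127.8 TPM. Twist1 at 38.1 TPM and Tgfb2 at 33.7 TPM came next and were not separated, since Twist1 was the higher of the pair in 6 of 8 libraries. Sox9 followed at 19.8 TPM. Its range met that of Bmp4, but Sox9 was the higher of the pair in 8 of 8 libraries. Bmp4 at 16.3 TPM likewise exceeded Bmp2 at 11.8 TPM in 8 of 8 libraries. Snai2 at 10.6 TPM, Snai1 at 9.77 TPM and Msx1 at 8.68 TPM overlapped one another, each being higher than the next in 6 of 8 libraries.

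The ligands start the transition, and their values are given in order of replicates 1 to 4. Bmp2, the signal from atrioventricular canal muscle that is required for cushion formation, held 10.2, 10.4, 10.9 and 13.6 TPM in the controls and 11.7, 10.6, 14.5 and 12.6 TPM in the mutants. The lowest values of both groups lay close together, and control replicate 4 exceeded all mutants but replicate 3. The log2 fold change of Bmp2 was 0.13 (standard error 0.11), with a limma adjusted p of 0.922.

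Bmp4, the BMP ligand associated chiefly with the outflow tract and septation, held 16.8, 12.7, 13.3 and 17.4 TPM in the controls and 20.2, 18.3, 18.4 and 13.6 TPM in the mutants. Mutant replicates 1 to 3 were above every control, while mutant replicate 4 lay between control replicates 3 and 1. Its log2 fold change, the largest of the 10, was 0.22 (standard error 0.13), with a 95% interval from -0.08 to 0.52 (limma, unadjusted p of 0.139, adjusted p of 0.865). As a percentage of the control level the interval runs from -5.67% to 43.0%. Without mutant replicate 4 the log2 fold change was 0.33, with an unadjusted p of 0.0185 and an adjusted p of 0.889 under limma, and over all alternatives the adjusted p of Bmp4 ran from 0.771 to 0.974.

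Tgfb2, the TGF-beta ligand of cushion myocardium and mesenchyme, was the steadiest of the 10. It held 35.5, 33.3, 33.7 and 35.7 TPM in the controls and 33.8, 32.7, 34.6 and 30.03 TPM in the mutants, the last value being the lowest of all 8. Its log2 fold change was -0.08 (standard error 0.051, limma adjusted p of 0.889), and the 95% interval, from -12.4% to 2.78% of the control level, was the narrowest of the 10.

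Transcription factors carry out the switch to mesenchyme. Twist1, a basic helix-loop-helix factor of proliferating cushion mesenchyme, held 44.8, 31.3, 33.2 and 40.4 TPM in the controls and 35.6, 38.9, 41.7 and 38.7 TPM in the mutants. The controls spread over the whole range of the mutants and beyond it on both sides, with an SD of 6.29 TPM against 2.51 TPM. Its log2 fold change of 0.06 (limma adjusted p of 0.964) changed sign to -0.02 when control replicate 2, the lowest library, was left out.

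Sox9, which cushion mesenchyme needs in order to expand and to lay down its cartilage-like matrix, held 19.4, 17.2, 18.1 and 21.8 TPM in the controls and 21.1, 22.2, 19.4 and 18.9 TPM in the mutants. Control replicate 4 was above 3 of the 4 mutants. For Sox9 the log2 fold change reached 0.09 (standard error 0.079, limma adjusted p of 0.922).

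Snai1 and Snai2 encode the zinc finger repressors Snail and Slug, which switch off the endothelial cadherin and other junction genes. Snai1 held 11.6, 9.44, 7.84 and 11.2 TPM in the controls and 9.34, 10.5, 10.7 and 7.56 TPM in the mutants. Each group had a library near the bottom of the range, control replicate 3 and mutant replicate 4. Its log2 fold change was -0.06 (limma adjusted p of 0.973), and it turned to 0.03 without mutant replicate 4 and to 0.0039 without control replicate 1. Snai2 held 10.1, 9.89, 12.0 and 12.1 TPM in the controls and 9.86, 11.5, 10.3 and 9.41 TPM in the mutants. Its groups overlapped over most of their range, at a log2 fold change of -0.09 (standard error 0.088, limma adjusted p of 0.929). The repressors were present at nearly equal levels: the ratio of Snai1 to Snai2 was 0.922 ± 0.205 among controls and 0.924 ± 0.0963 among mutants (SD, n = 4 per genotype).

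Msx1, a homeobox factor induced by BMP signalling in the cushions, had the widest relative spread. It held 8.77, 7.46, 7.87 and 9.87 TPM in the controls and 6.88, 7.70, 9.11 and 11.8 TPM in the mutants, so that the lowest and the highest of the 8 libraries were both mutants. The log2 fold change of 0.04 had a 95% interval from -18.2% to 28.8% of the control level (limma adjusted p of 0.987). It was -0.09 without mutant replicate 4 and -0.02 without control replicate 2. Reads of Msx1os, a feature that shares 2188 bases with Msx1 on the opposite strand and averaged 3.43 TPM, can mix with those of Msx1 if strand was not used in counting, which the sources used here do not state.

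Matrix genes were the most abundant of the 10. Vcan encodes versican, the large proteoglycan that binds hyaluronan and swells the cushion matrix. It held 365, 381, 319 and 372 TPM in the controls and 404, 403, 347 and 382 TPM in the mutants. Mutant replicates 1, 2 and 4 were above every control, replicate 4 by about 1 TPM, and replicate 3 was below 3 of the 4 controls. The log2 fold change of 0.10 had a standard error of 0.066 and a limma adjusted p of 0.890. Versican has several splice forms, which a value per gene does not separate.

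Postn encodes periostin, a secreted protein that marks maturing valve mesenchyme and organizes collagen. It held 149, 132, 134 and 118 TPM in the controls and 132, 117, 131 and 109.5 TPM in the mutants. Control replicate 1 was the highest and mutant replicate 4 the lowest, and the remaining 6 libraries were interleaved. The log2 fold change of -0.12 had a standard error of 0.080 (limma adjusted p of 0.888). The ratio of Vcan to Postn was 2.44, 2.89, 2.37 and 3.16 in the controls and 3.06, 3.45, 2.64 and 3.49 in the mutants. Mutant values tended to the upper end but overlapped the controls.

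Ratios within these pairs were compared by exact two-sided permutation of the libraries, a comparison chosen after the values were seen. For Vcan to Postn the log2 ratio differed by 0.22 between the genotypes (exact permutation p of 0.171, adjusted over the 3 ratios 0.514). For Bmp4 to Bmp2 it differed by 0.09 (exact permutation p of 0.714, adjusted 0.943), and for Snai1 to Snai2 by 0.03 (exact permutation p of 0.943, adjusted 0.943). The smallest exact permutation p that 4 against 4 libraries allow is 0.0286, before adjustment. A single ratio at that floor would not pass 0.05 once adjusted over the 3, so the adjusted values could not single out 1 ratio. None of the 3 passed at 0.05, with or without adjustment. The mean ratio of Vcan to Postn was 2.72 ± 0.373 among controls and 3.16 ± 0.396 among mutants (SD, n = 4 per genotype), a difference slightly larger than either SD.

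**Figure D2:**
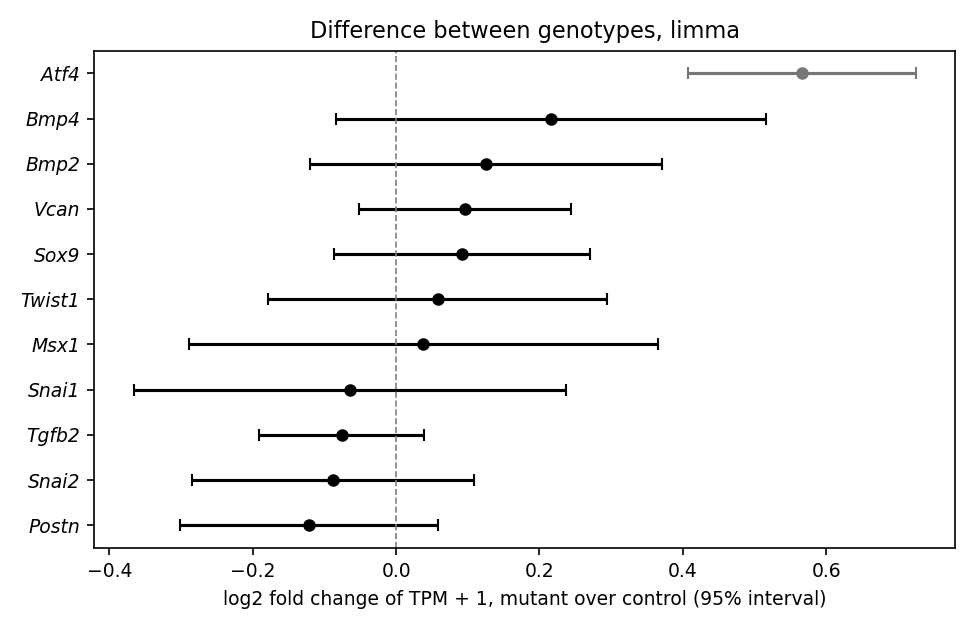
Log2 fold change of TPM + 1, mutant over control, with its 95% interval from limma, for the 10 cushion and valve genes (black) and for Atf4 (grey). All 10 black intervals include 0, from Postn at -0.12 to Bmp4 at 0.22, while that of Atf4 does not.

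The intervals give the range of change compatible with these libraries gene by gene, before any allowance for the number of genes. Across the 10 genes the lowest limit was -22.4% of the control level, for Snai1, and the highest 43.0%, for Bmp4. Changes of 2-fold in either direction lay outside all 10 of these intervals. Smaller differences within a gene's own interval remain possible.

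The cushion genes varied more between libraries of the same genotype than most genes of like abundance. The residual SD within genotype was above the median of tested genes within 1.5-fold of the same mean TPM in 9 of the 10, and the median percentile was 86.5. Twist1 had a residual SD of 0.18 on the log2 scale against a median of 0.08 for 3088 genes of like level, Bmp4 0.23 against 0.10, and Postn 0.14 against 0.06. Tgfb2 was the exception, at 0.07 against 0.08. Without matching for level, the median residual SD was 0.16 for the 10 genes and 0.15 for the further mesenchyme markers. It was 0.15 for atrioventricular canal muscle markers, a list that shares a gene with the 10, and 0.28 for erythroid markers. Endocardial markers stood at 0.07 and ventricular muscle markers at 0.08, against 0.10 for all tested genes. A wide spread was thus not particular to the 10. These percentiles and medians describe the libraries and carry no test.

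**Figure D3:**
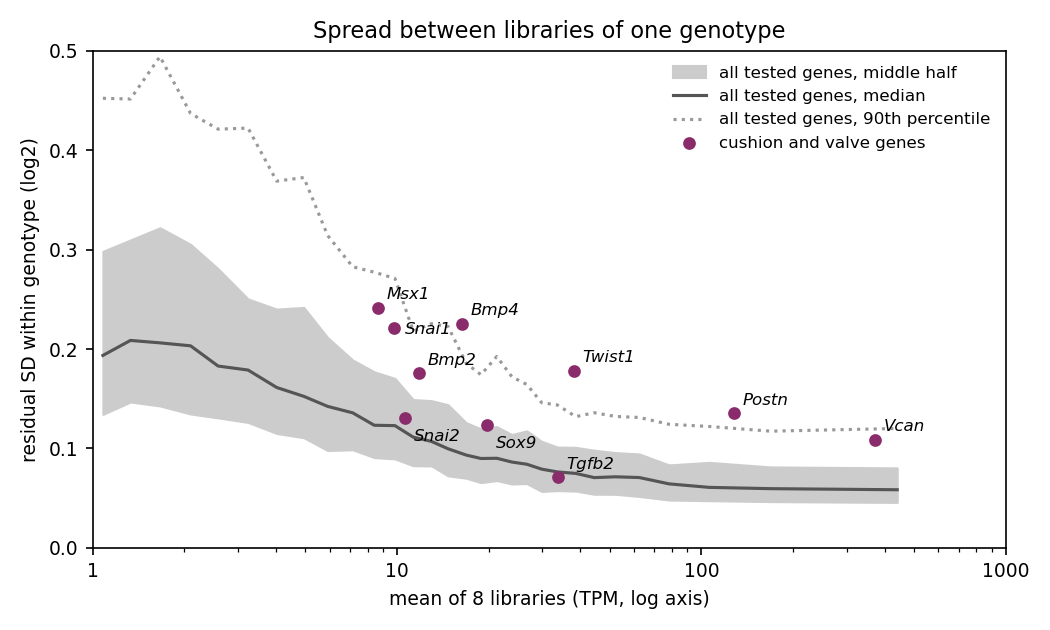
Residual SD of log2(TPM + 1) within genotype against mean TPM on a log axis, for the 10 genes (purple points) and for all tested genes (line for the median, band for the middle 50%, dotted line for the 90th percentile). Of the 10 genes, 9 lie above the median of genes at their level, and Tgfb2 at 0.07 lies below it.

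That spread was partly shared between the genes. Among the controls, replicate 4 was the highest library for 6 of the 10 genes and replicate 2 the lowest for 6. Among the mutants, replicate 4 was the lowest for 6 of the 10, with Msx1, Bmp2 and Twist1 not below their group mean. The median deviation from the group mean was 0.15 in control replicate 4, -0.12 in control replicate 2 and -0.11 in mutant replicate 4 on the log2 scale. Other lists moved in some of the same libraries. In mutant replicate 4, 7 of the 10 further mesenchyme markers and 7 of 10 endocardial and endothelial markers were the lowest of their group. Their median deviations were -0.15 and -0.05. Epicardial markers were lowest there for 4 of 8 (median deviation -0.08), but also for 4 of 8 in mutant replicate 3 (-0.06). Ventricular muscle markers were lowest in mutant replicate 4 for 4 of 8 as well (-0.04). For atrial and erythroid markers these counts were 0 of 5 and 0 of 6. In control replicate 4 the further mesenchyme markers had a median deviation of -0.02, while atrioventricular canal muscle markers stood at 0.11 and erythroid markers at 0.34. In control replicate 2 the further mesenchyme markers stood at -0.09 and the endocardial markers at 0.04. The further mesenchyme markers were highest in control replicate 1 for 8 of 10 (median deviation 0.16) and in mutant replicate 1 for 7 of 10 (0.12). They were highest in control replicate 4 for 0 of 10. Mutant replicate 4 also had the fewest features at 1 TPM or more, at 15380. The share of all tested genes highest or lowest in each library was not counted, so these counts have no background beside them. The part of tissue composition in these deviations was not tested.

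**Figure D4:**
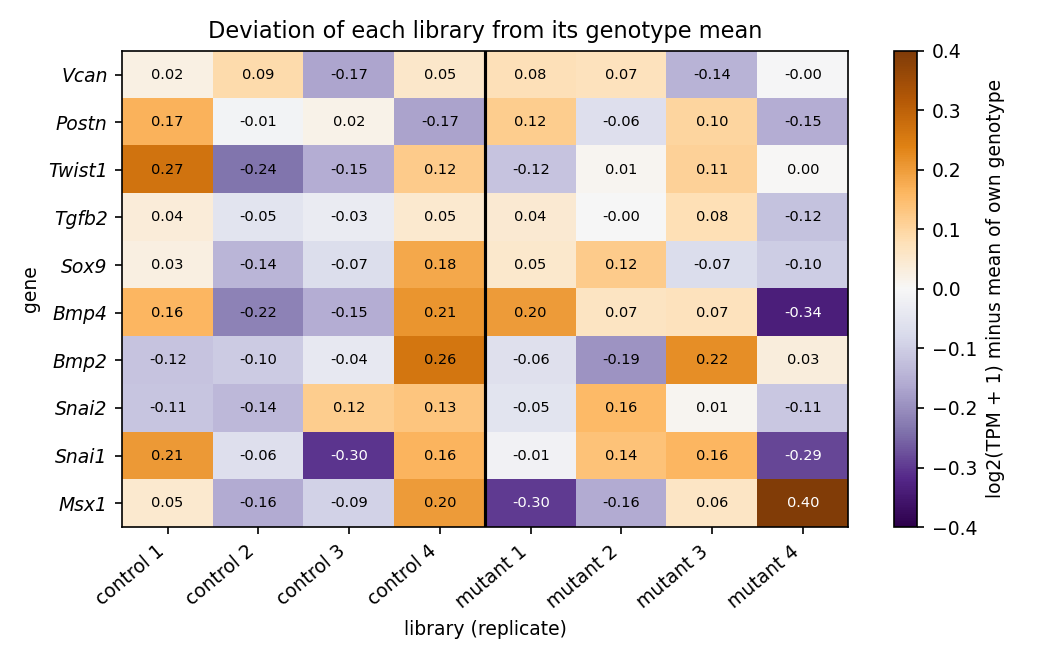
Log2(TPM + 1) of the 10 genes in each library minus the mean of the library's own genotype, with control libraries to the left of the line and mutants to the right (orange above the mean, purple below). Control replicate 2 is below its mean in 9 of 10 genes and mutant replicate 4 in 7 of 10, while Msx1 in mutant replicate 4 stands 0.40 above it.

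Pairs of the 10 genes were compared over the 8 libraries as a description, with the libraries shared by all pairs. The Pearson correlation was above 0 in 30 of 45 pairs, with a median of 0.20. The most alike were Sox9 and Bmp4 at 0.82 and Snai1 and Tgfb2 at 0.76, and the least alike were Msx1 and Postn at -0.52. Among 11617 other genes with a mean of at least 5 TPM, those that most resembled the average standardized pattern of the 10 were Capn15, Phf13, Cracd, 5031439G07Rik and Id1, with Pearson correlations of 0.96, 0.96, 0.96, 0.95 and 0.95 over 8 libraries. They are the highest of 11617 values over few libraries and carry no test. Of these 5, Id1 is a direct target of BMP signalling. It held 81.9, 67.1, 72.0 and 85.6 TPM in the controls and 83.6, 79.8, 81.7 and 70.8 TPM in the mutants, so its low libraries were control replicates 2 and 3 and mutant replicate 4. Its log2 fold change between genotypes was 0.05 (limma adjusted p of 0.962).

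The rest of the pathway was read from 9 lists holding 111 further genes, and 107 of these entered the test. None passed the adjusted threshold under limma, a count of 0, and 6 of 107 had an unadjusted p below 0.05, 5 higher and 1 lower, against 6.1% of all genes tested (2.65% higher and 3.45% lower). The groups did not overlap in 4 of the 107, with 3 higher and 1 lower, against 3.68% of all genes tested. The lower one is in the list of cushion and valve transcription factors. Both shares of the 107 are near the background. The median log2 fold change of the 107 genes was 0.0035, with 56 above 0 and 51 below.

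Among the other ligands, 0 of 8 passed the adjusted threshold. The lowest p in all 9 lists belonged to Bmp10, a ligand of trabecular muscle, which held 107, 109, 112 and 108 TPM in the controls and 144, 120, 128 and 125 TPM in the mutants. The groups did not overlap, at a log2 fold change of 0.24 (limma, unadjusted p of 0.00108, adjusted p of 0.549). Bmp5, which acts beside other BMPs in cushion formation, averaged 19.7 ± 0.701 TPM without and 22.9 ± 1.87 TPM with the mutation (SD, n = 4 per genotype). Its log2 fold change was 0.20 (limma, unadjusted p of 0.00911, adjusted p of 0.780). Bmp7 averaged 99.1 and 100.7 TPM in controls and mutants and Tgfb3 11.2 and 10.9 TPM, with an adjusted p of at least 0.969 under limma for both.

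No receptor passed, with 0 of 11 below the adjusted threshold and 0 of 11 at an unadjusted p below 0.05 under limma. Bmpr1a, the type I receptor that endocardial cells need to respond to BMP2, averaged 74.98 ± 1.63 and 75.6 ± 1.41 TPM in controls and mutants (SD, n = 4 per genotype). Tgfbr2 averaged 23.1 and 23.0 TPM, and Tgfbr3, the co-receptor that presents TGF-beta 2, averaged 59.9 and 61.4 TPM. Of the 6 SMAD genes, the signal transducers of both ligand families, 0 passed, and Smad4, their common partner, averaged 31.8 and 32.0 TPM. Smad2, which carries TGF-beta signals, held 12.5, 13.7, 19.99 and 22.2 TPM in the controls and 22.5, 20.7, 20.9 and 20.5 TPM in the mutants. Control replicates 1 and 2 were below the other 6 libraries, and the log2 fold change was 0.33 (limma, unadjusted p of 0.0676, adjusted p of 0.841).

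Antagonists and feedback inhibitors gave 0 of 9 past the adjusted threshold. Smad6, an inhibitory SMAD that BMP signalling itself induces, held 43.8, 42.0, 42.7 and 49.4 TPM in the controls and 51.0, 48.3, 50.3 and 48.6 TPM in the mutants. Control replicate 4 overlapped the mutants, and the log2 fold change was 0.16 (limma, unadjusted p of 0.0156, adjusted p of 0.780). Smad7 averaged 16.04 TPM in both groups. In the list of 9 BMP-responsive genes, which also includes both inhibitory SMADs, 6 had a positive log2 fold change, the median was 0.05, and 0 passed. Id2 averaged 225 and 228 TPM and Id3 167 and 163 TPM in controls and mutants. Tbx2, which keeps atrioventricular canal muscle from becoming chamber muscle, averaged 9.13 ± 0.850 and 10.05 ± 0.957 TPM (SD, n = 4 per genotype).

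The Notch pathway, which primes endocardium for the transition, had 0 of 10 genes past the adjusted threshold and 0 of 10 at an unadjusted p below 0.05 under limma. Notch1 averaged 27.9 and 27.1 TPM, Dll4 10.7 and 10.8 TPM and Jag1 20.4 and 20.5 TPM in controls and mutants. Of 19 tested cushion and valve transcription factors 0 passed. Foxc2 had the lowest p, at 16.2, 17.4, 15.1 and 17.6 TPM in the controls and 18.9, 18.4, 20.1 and 18.5 TPM in the mutants, which did not overlap (log2 fold change 0.19, limma unadjusted p of 0.0115, adjusted p of 0.780). Sox4 was the gene with a negative value at an unadjusted p below 0.05, averaging 72.7 and 69.0 TPM (log2 fold change -0.07, limma adjusted p of 0.809). Nfatc1, the factor of valve endocardium, averaged 24.8 and 26.7 TPM, Prrx2, a mesenchymal homeobox gene, 44.6 and 45.5 TPM, and Tbx20 169 TPM in both groups.

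Of 24 cushion and valve matrix genes 0 passed the adjusted threshold, with 12 above 0 and 12 below. Adamts9, a protease that cleaves versican, held 29.0, 25.5, 25.2 and 29.1 TPM in the controls and 32.4, 31.8, 29.7 and 29.9 TPM in the mutants, without overlap (log2 fold change 0.18, limma unadjusted p of 0.0142, adjusted p of 0.780). Hapln1, the link protein that ties versican to hyaluronan, averaged 127 ± 11.8 and 139 ± 12.0 TPM, and Has2, the enzyme that makes hyaluronan, 13.3 ± 1.89 and 13.8 ± 0.853 TPM in controls and mutants (SD, n = 4 per genotype). Col1a1 averaged 88.3 and 90.1 TPM and Col3a1 240 and 255 TPM. In the list of ErbB, VEGF, Wnt and adhesion genes 0 of 16 passed, and Erbb3, a receptor that drives mesenchymal invasion, averaged 8.63 and 8.62 TPM.

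**Figure D5:**
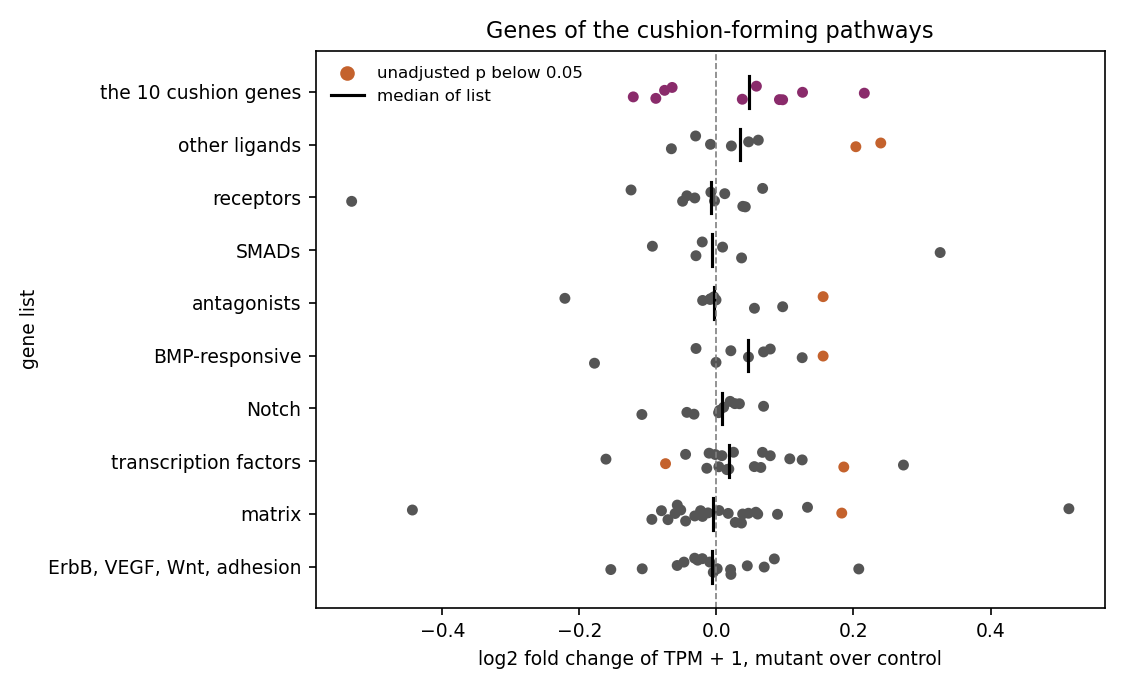
Log2 fold change of TPM + 1, mutant over control, of each tested gene in the set of 10 (purple) and in 9 lists of related genes, with a black tick for the median and orange for an unadjusted p below 0.05. Medians lie between -0.0082 and 0.05, and no gene passed the adjusted threshold.

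Promoter sequence was examined as context, since the Snail repressors bind a particular E-box and ATF4 pairs with C/EBP proteins at a composite element. RefSeq start sites of GRCm38.p6 gave windows from 250 bases before to 50 bases after the start for 7 of the 10 genes. The windows of Tgfb2 (186705940 to 186706239) and Vcan (89742463 to 89742762) lie inside the gene spans given below and do not reach the 5′ end. Postn has a window at its 5′ end and another inside the gene. The genes with no window in the table were Bmp2, Snai2 and Sox9. The E-box CAGGTG, searched on both strands, occurred in windows of 3 of the 7 genes, against 22.6% of the 27025 genes with a window. The C/EBP-ATF element TGATGNAA occurred in 0 of the 7, against 4.51% of genes. The Twist E-box CATATG occurred in 0 of the 7, against 4.48%, and the TATA box TATAAA in 3 of the 7, against 15.7%. These counts carry no test and do not cover the 5′ ends of Tgfb2 and Vcan. The stretches that hold the E-box are shown because they name the site in a ligand, in a BMP-responsive factor and in the gene for Snail itself. Each runs 5′ to 3′ along the gene's own strand with the E-box in capitals, CACCTG being the same box read from the other strand.
Bmp4 (chr14:46390801-46390886, minus strand): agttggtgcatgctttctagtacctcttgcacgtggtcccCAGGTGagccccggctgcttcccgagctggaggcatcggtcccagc
Msx1 (chr5:37824750-37824835, minus strand): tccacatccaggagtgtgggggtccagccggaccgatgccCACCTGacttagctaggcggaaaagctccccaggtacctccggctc
Snai1 (chr2:167538029-167538114, plus strand): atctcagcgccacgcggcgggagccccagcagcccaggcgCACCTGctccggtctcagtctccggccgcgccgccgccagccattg
Counted from the start site, the first base of the box lies at -177 in Bmp4, -210 in Msx1 and -126 in Snai1. A match is a run of letters and no measurement of binding, and these 3 genes did not differ between genotypes beyond the spread of their libraries.

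All 10 genes had coordinates identical to RefSeq on GRCm38.p6, counted from 1. Bmp2 lies on chromosome 2 from 133552159 to 133562896 and Snai1 on the same chromosome from 167538195 to 167542814, both on the plus strand. Bmp4 spans 46383525 to 46390669 on the minus strand of chromosome 14, and Tgfb2 spans 186622787 to 186709697 on the minus strand of chromosome 1. Twist1 spans 33957671 to 33959831 on the plus strand of chromosome 12, Sox9 spans 112782210 to 112787757 on the plus strand of chromosome 11, Snai2 spans 14705852 to 14709395 on the plus strand of chromosome 16 and Msx1 spans 37820491 to 37824585 on the minus strand of chromosome 5. Vcan spans 89655309 to 89743027 on the minus strand of chromosome 13 and Postn 54359267 to 54391041 on the plus strand of chromosome 3. Features on the opposite strand overlap Msx1, Bmp4, Tgfb2, Postn and Vcan. Apart from Msx1os, the most abundant was Gm15222, which overlaps Bmp4 by 1805 bases and averaged 2.40 TPM.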

How the data were processed

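The authors deposited 1 table of TPM for all libraries. The submitters' processing notes name GRCm38 (mm10), FastQC, Trim Galore 0.6.7, HISAT2 2.2.1, StringTie 2.2.1, featureCounts and DESeq2, without saying which made the TPM. Annotation, strand setting and treatment of multi-mapping reads are not given in the sources used here. The labels disagree on library type (stranded poly(A) kit or ribosomal RNA depletion). Listed features summed to between 923473 and 949762 TPM per library, and read depth is unknown. Titles gave the groups and replicate numbers, and the batch field reads 1 throughout. Whether libraries of a group come from separate litters is not stated, so p-values measure the spread between these samples.

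Genes that reached 1 TPM in 4 or more libraries were compared as log2(TPM + 1) in limma 3.58.1 (R 4.3.3), with a variance trend, no covariate and two-sided tests, and the fit was tested on simulated data. Ratios were compared by exact permutation in Python 3.11.15. The 10 genes and all lists were chosen with earlier results of these data known. Genes named are the 10, Atf4, core genes of each list, those with the smallest p in a list, and the 5 most alike in pattern. Others were named after their values were seen. Alternatives were another pseudocount (0.1), filters, scalings and variance models, library weights, a block by replicate number, and leaving out each library.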

Additional observations from a re-analysis of the deposited data

Results flagged for a closer look

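In 28 groups of 4 libraries (the 10 genes, Atf4 and the 3 ratios, in each genotype), 1 library stood apart from the rest of its group, where chance alone would give about 1.4 such cases, 1 in 20 groups. The ratio of Bmp4 to Bmp2 was high in control replicate 1, at 1.64 against 1.22 to 1.28 in the other controls. In the mutants the ratio was 1.72, 1.72, 1.26 and 1.08.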

How the results depend on the processing

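The count of the 10 genes past the adjusted threshold was 0 in all 17 alternatives, as was that of the other pathway genes. Over all genes 6 passed, and this fell to 0 with no filter, with no variance trend and with the replicate block, and to between 0 and 3 when 1 library was left out. Of 170 refits of the 10 genes, 165 kept their direction, and the lowest adjusted p was 0.740. The 5 that reversed each left out a library: the log2 fold change of Twist1 ranged from -0.020 to 0.15, that of Snai1 from -0.17 to 0.031 and that of Msx1 from -0.094 to 0.14. The others kept their sign but also moved, Bmp2 from 0.052 to 0.21, Bmp4 from 0.14 to 0.33, Sox9 from 0.045 to 0.15, Vcan from 0.041 to 0.14, Postn from -0.18 to -0.066, Snai2 from -0.14 to -0.045 and Tgfb2 from -0.10 to -0.036. With a library left out, the log2 ratio of Snai1 to Snai2 ranged from -0.13 to 0.14 and that of Bmp4 to Bmp2 from -0.00074 to 0.22, an alternative chosen after the data were seen. Atf4 lost its call in 12 of the 17, at log2 fold changes of 0.51 to 0.62. Libraries share only a replicate number: same-numbered pairs deviated with correlations of -0.08 to 0.04, and 1 of 4 controls correlated best with its own number. Under the replicate block Postn had an unadjusted p of 0.0162 and Vcan of 0.0212, both with an adjusted p of 0.886 (limma). TPM hold no depth, so no limit from counting can be given.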

Other observations

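Some pathway genes differed widely between libraries of the same genotype, and are named here because of their spread. Bmpr1b, a type I BMP receptor, held 1.99, 2.04, 1.66 and 1.58 TPM in the controls and 2.08, 2.85, 0.1 and 0.0936 TPM in the mutants, so mutant replicates 3 and 4 stood far below the other 6 libraries. With a pseudocount of 0.1 the log2 fold change of Bmpr1b moved from -0.53 (limma adjusted p of 0.903) to -1.43. Tnc, for the matrix protein tenascin-C, held 17.6, 7.66, 6.36 and 15.8 TPM in the controls and 16.8, 22.1, 12.7 and 13.8 TPM in the mutants. Its 2 lowest values were control replicates 2 and 3. Adamts19, a protease gene of valve tissue, held 14.8, 18.3, 19.8 and 7.70 TPM in the controls and 12.7, 12.7, 11.3 and 5.94 TPM in the mutants. Its low libraries were replicate 4 of each genotype. For the antagonist follistatin, the log2 fold change of Fst moved from -0.22 to -0.40 with a pseudocount of 0.1, at averages of 1.36 and 1.05 TPM in controls and mutants.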
